A study of Rattus norvegicus with 84 samples.

Results

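Slc7a5 encodes LAT1, the light chain of the main transporter that carries leucine, phenylalanine, tryptophan and other large neutral amino acids across the blood-brain barrier and into neurons. It was described here with 9 further genes of neutral amino acid and cystine transport in the hippocampus of young and middle-aged rats. The 10 genes were taken by symbol from the deposited tables, where all 10 were present in each, of 15109 genes that the 3 tables share. The 10 genes were selected on measured values of these libraries, chosen by the age contrast of Slc7a5: its transcript was lower at 12 than at 5 months on the average over subregions, and the other members were added as its partner subunit, relatives and functional neighbours. Age differences of the members are therefore given as descriptions, with no p value. Where such a difference is said to pass or miss the threshold, this describes the fit and is no test of the member.

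RNA was sequenced from hippocampal subregions of 28 F344 rats, males of an inbred strain. The subregions were the pyramidal fields CA1 and CA3 and the dentate gyrus (DG). Each rat gave 1 library per subregion, 84 in all, from 1 hemisphere. The young group held 12 rats of 5 months and the middle-aged group 16 rats of 12 months. Both ages were of the same sex and strain, no drug or genetic change is named in the labels, and the tissue was bulk, so each library mixes neurons, glia and vessels. Libraries held 14.4 to 23.4 M reads. The animal numbers in the titles fall into lower and higher ones. The lower numbers, called the first run here, are consecutive and cover 6 young rats and then 10 middle-aged ones. The higher numbers, called the second run, are 2 separate blocks that do not adjoin, 1 of 6 young and 1 of 6 middle-aged rats, so within this run block and age cannot be told apart. The labels do not say what the numbers stand for, and values by run are given beside the age differences. Markers of CA1 pyramidal cells had a median level 2.05 higher in CA1 than in CA3 on the log2 scale. Those of CA3 pyramidal cells had a median of -2.73 in CA1 against CA3. For dentate granule cells the median was 2.95 higher in the DG than in CA1. The 2 CA1 pyramidal markers summed to 2224 to 14640 in young and 1646 to 10839 in middle-aged DG libraries. Their part in the members' values was not tested.

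LAT1 works as a pair. The light chain moves the amino acid and exchanges one for another, while the heavy chain, 4F2hc or CD98, encoded by Slc3a2, brings the light chain to the cell surface. The same heavy chain serves LAT2 (Slc7a8), Asc-1 (Slc7a10), which carries serine and glycine, and xCT (Slc7a11), which takes up cystine in exchange for glutamate. Sodium-coupled carriers of the SLC38 family move glutamine between astrocytes and neurons and supply the substrates that exchangers trade, ASCT1 (Slc1a4) exchanges serine and alanine, and GlyT1 (Slc6a9) clears glycine around synapses. Leucine that enters through such carriers is a known signal to the growth kinase complex mTORC1, and amino acid shortage is known to induce several of these genes through ATF4.

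Promoter sequence is shown for Slc7a5, the gene the description starts from, and for the 2 genes in which a match to a known amino acid response motif was found. RefSeq promoters of build GRCr8 matched 9 of the 10 genes (all but Slc38a3) with 10 windows, since Slc3a2 has 2 listed starts. The windows cover 250 bases before the start. The motif TGATGNAA, the core of sites bound by C/EBP and ATF proteins, was chosen after the windows had been seen. It was searched on both strands. It was found in 1139 of 33469 windows of that length (3.40%) and in 2 of the 10 member windows. In Slc38a1 the match begins 142 bases before the start, and in Slc1a4 it lies on the other strand, 235 bases before the start. A match describes letters only. The Slc7a5 window is at chr19:66872413-66872662 (minus strand, 66.8% G and C, against a median of 51.2% over all windows), the Slc38a1 stretch at chr7:129681506-129681573 (minus strand) and the Slc1a4 stretch at chr14:98761760-98761812 (minus strand). Capitals mark the motif, and each sequence runs 5′ to 3′ toward its gene.
Slc7a5: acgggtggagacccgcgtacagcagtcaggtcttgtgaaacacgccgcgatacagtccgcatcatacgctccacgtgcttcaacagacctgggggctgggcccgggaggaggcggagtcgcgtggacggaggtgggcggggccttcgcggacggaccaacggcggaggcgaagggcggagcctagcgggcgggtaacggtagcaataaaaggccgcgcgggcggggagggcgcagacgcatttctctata
Slc38a1: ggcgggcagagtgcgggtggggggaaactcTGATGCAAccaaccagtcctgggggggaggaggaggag
Slc1a4: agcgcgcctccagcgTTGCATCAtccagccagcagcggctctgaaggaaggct

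The first question was how the light and heavy chain transcripts stood at the 2 ages. Values are normalized read counts, the authors' gene counts divided by 1 factor per library. In CA1, Slc7a5 ranged from 1780 to 2762 in young rats (median 2075) and from 1358 to 1956 in middle-aged rats (median 1682). In CA3 it ranged from 1565 to 1961 (median 1849) and from 1337 to 1732 (median 1562). In the DG it ranged from 1407 to 2209 (median 1961) and from 1053 to 1953 (median 1401). The ages overlapped in every subregion, but in each of the 3 all 16 middle-aged libraries lay below the young median. In CA1, 11 of the 16 lay below the lowest young library, and in CA3 and the DG 8 of 16 did.

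On the log2 scale the difference in Slc7a5, middle-aged minus young, was -0.37 ± 0.06 for CA1 (SE, 12 and 16 rats, as in all age differences here), -0.22 ± 0.04 for CA3 and -0.43 ± 0.08 for the DG. The mean of a rat's 3 subregions differed by -0.34 ± 0.04, a ratio of 0.789. In the first run of animal numbers the 3 differences were -0.35, -0.23 and -0.29, and in the second -0.43, -0.23 and -0.61. CA3 thus had the same value in both runs. The DG had a smaller value than CA1 in the first run, where it did not pass the threshold, and a larger one in the second. From the first run alone 0.172% of all genes passed in the DG and 3.19% in CA1, to be set beside first-run calls of members below. Over fits that left out 1 rat each, the CA1 difference stayed between -0.39 and -0.34 and that of CA3 between -0.24 and -0.21.

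Slc3a2, the heavy chain, had smaller age values than the light chain. In CA1 its counts ranged from 3237 to 4588 in young rats (median 3822) and from 2901 to 4136 in middle-aged rats (median 3645), and in CA3 from 3229 to 3976 (median 3536) and from 3138 to 4046 (median 3546). In the DG they ranged from 3025 to 4425 (median 3750) and from 2816 to 4005 (median 3209). The groups overlapped nearly fully in CA1 and CA3, where 1 of 16 middle-aged libraries lay below the lowest young one, and less in the DG, where 5 did. The log2 differences were -0.06 ± 0.05 for CA1, -0.01 ± 0.04 for CA3 and -0.19 ± 0.06 for the DG. The sign depended on the run in CA1, with -0.18 in the first and 0.06 in the second, and in CA3, with -0.08 and 0.10, while in the DG both were lower (-0.13 and -0.28).

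The ratio of light to heavy chain reads within a library does not depend on the library's scaling. Its log2 value had a mean of -0.82 ± 0.18 in young and -1.14 ± 0.12 in middle-aged CA1 (SD, n = 12 and 16). In CA3 it was -0.99 ± 0.11 and -1.20 ± 0.12, and in the DG -0.97 ± 0.12 and -1.21 ± 0.13. Light chain reads were thus fewer per heavy chain read at 12 months in each subregion, and the ranges overlapped in each (from -1.17 to -0.55 in young and from -1.35 to -0.93 in middle-aged CA1). Because Slc7a5 was chosen for its age difference, this ratio is no separate support for it. For Slc7a8 reads the ratio to heavy chain reads had means of -1.64 and -1.60 for CA1 and -1.45 and -1.41 for CA3. In the DG they were -1.51 and -1.40, and each difference was well inside the spread between libraries. The mean Slc7a10 ratio was lower at 12 months in each subregion, with -2.75 ± 0.18 and -2.86 ± 0.16 (SD), -3.12 ± 0.12 and -3.27 ± 0.21, and -3.22 ± 0.25 and -3.36 ± 0.15. The mean Slc7a11 ratio was higher in each, with -1.76 ± 0.34 and -1.65 ± 0.33, -1.45 ± 0.20 and -1.37 ± 0.16, and -1.85 ± 0.27 and -1.50 ± 0.33 (SD) in the DG. In CA1 and CA3 the Slc7a11 differences were also well inside the spread. The ranges of both ratios overlapped between the ages in each subregion.

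**Figure D1:**
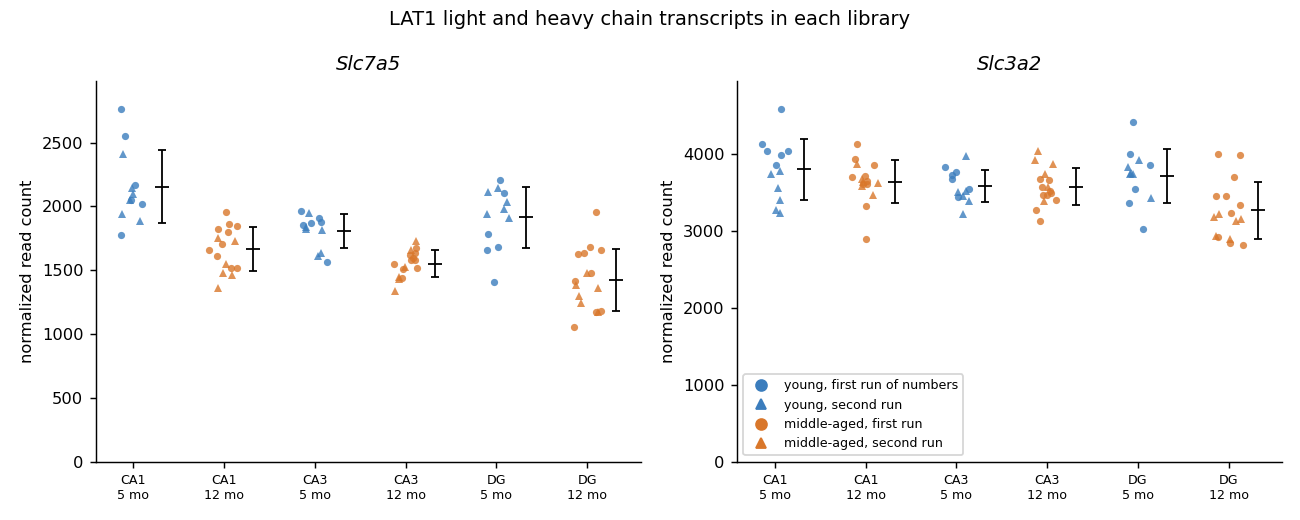
Normalized read counts (vertical axis) of Slc7a5 and Slc3a2 in each library, by subregion and age. Circles are rats of the first run of animal numbers and triangles of the second, and bars give the mean and SD. Middle-aged Slc7a5 values sit below the young median in 16 of 16 libraries in each subregion. Slc3a2 values of the ages overlap in CA1 and CA3, with 12 and 8 of 16 middle-aged libraries below the young median.

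The other partners of the heavy chain did not share one age pattern. Slc7a8, for LAT2, a carrier of similar substrates with a broader range, had medians of 1197 in young and 1192 in middle-aged CA1, 1277 and 1341 for CA3 and 1334 and 1234 for the DG. Its log2 differences were -0.02 ± 0.07, 0.03 ± 0.04 and -0.08 ± 0.06, and on the average -0.02, with a 95% interval of -0.08 to 0.04. By run the Slc7a8 values were -0.06 and 0.05 for CA1, 0.05 and 0.03 for CA3 and -0.08 and -0.03 for the DG. Slc7a11, for xCT, was the member with the highest average difference, 0.09 ± 0.05, with 0.05 for CA1, 0.07 for CA3 and 0.15 ± 0.08 for the DG. Its DG counts ranged from 841 to 1396 in young (median 968) and from 913 to 1450 in middle-aged rats (median 1154). In the DG 2 of 16 middle-aged libraries exceeded the highest young one and none lay below the lowest. By run the Slc7a11 values were 0.16 and -0.03 for CA1, -0.02 and 0.21 for CA3 and 0.26 and 0.10 for the DG. With the run of animal numbers as a term, the Slc7a11 difference was 0.19 in the DG and 0.11 on the average. It was then past the threshold, as were 38.9% of all genes in the DG and 55.0% on the average.

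Slc7a10, for Asc-1, was lower in middle-aged rats in all 3 subregions. In CA1 it ranged from 502 to 660 in young (median 562) and from 407 to 678 in middle-aged rats (median 496). In CA3 the ranges were 364 to 477 (median 399) and 291 to 491 (median 368), and in the DG 274 to 503 (median 427) and 247 to 393 (median 323). Groups overlapped throughout, and 1 middle-aged library exceeded every young one in CA1 and in CA3. The log2 differences were -0.17 ± 0.07, -0.16 ± 0.07 and -0.33 ± 0.09, and -0.22 ± 0.05 on the average. The first and second run gave -0.17 and -0.17 for CA1, -0.13 and -0.21 for CA3 and -0.15 and -0.49 for the DG, and the DG call was lost in the first run.

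The 3 sodium-coupled glutamine carriers had unlike age values. Slc38a3, for SNAT3, which releases glutamine from astrocytes, ranged from 1453 to 2212 in young CA1 (median 1648) and from 1216 to 2070 in middle-aged CA1 (median 1550). In CA3 it ranged from 1391 to 1908 (median 1666) and from 1301 to 1720 (median 1592), and in the DG from 1139 to 1761 (median 1453) and from 779 to 1666 (median 1255). The middle-aged groups reached lower than the young ones in each subregion, with 7, 4 and 6 of 16 libraries below the lowest young value in CA1, CA3 and the DG. The log2 differences were -0.18 ± 0.08, -0.11 ± 0.05 and -0.30 ± 0.09, and -0.20 ± 0.04 on the average. They were larger in the second run than in the first, with -0.28 against -0.15 for CA1, -0.15 against -0.09 for CA3 and -0.39 against -0.23 for the DG, where the first run alone did not pass.

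Slc38a1 and Slc38a2 encode SNAT1 and SNAT2, which bring glutamine and small neutral amino acids into cells, SNAT2 being the carrier best known for its response to amino acid shortage. Slc38a1 medians were 991 and 863 in young and middle-aged CA1, 1095 and 1013 for CA3 and 753 and 771 for the DG. Its differences were -0.21 ± 0.09, -0.14 ± 0.05 and 0.02 ± 0.08, and -0.11 ± 0.05 on the average. The runs differed: the first gave -0.04 for CA1, -0.15 for CA3 and 0.25 for the DG, and the second -0.38, -0.15 and -0.22. The DG value thus averages opposite signs, and the average over subregions was 0.02 and -0.25 by run. Slc38a2 medians were 2229 and 2155 for CA1, 2705 and 2829 for CA3 and 1741 and 1759 for the DG. Its differences were 0.00 ± 0.07, 0.00 ± 0.07 and 0.07 ± 0.06, with a 95% interval of -0.04 to 0.09 on the average. For Slc38a2 the 2 runs had opposite signs in each subregion, with 0.10 and -0.09 for CA1, -0.16 and 0.17 for CA3 and 0.17 and -0.04 for the DG.

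The serine and glycine carriers were among the members with the largest age differences. Slc1a4, for ASCT1, ranged from 1209 to 1780 in young CA1 (median 1659) and from 1244 to 1640 in middle-aged CA1 (median 1368), and in the DG from 962 to 1469 (median 1274) and from 718 to 1164 (median 941). In both subregions 16 of 16 middle-aged libraries lay below the young median, and in the DG 9 of 16 lay below every young library. In CA3 the ranges were 1085 to 1468 (median 1255) and 1060 to 1356 (median 1188), with 11 of 16 below the young median. The log2 differences were -0.20 ± 0.06 for CA1, -0.10 ± 0.04 for CA3 and -0.39 ± 0.07 for the DG. They came more from the second run, with -0.05, -0.02 and -0.22 in the first and -0.38, -0.21 and -0.59 in the second.

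Slc6a9, for GlyT1, ranged from 1771 to 2446 in young CA1 (median 2111) and from 1183 to 2312 in middle-aged CA1 (median 1652). In CA3 it ranged from 2187 to 3927 (median 3069) and from 1926 to 3579 (median 2753), and in the DG from 862 to 1467 (median 1126) and from 708 to 1362 (median 928). In CA1 11 of 16 middle-aged libraries lay below every young one, in the DG 5 and in CA3 2. The log2 differences were -0.32 ± 0.08, -0.16 ± 0.08 and -0.27 ± 0.08, and -0.25 ± 0.05 on the average. The runs disagreed in CA3, with -0.32 in the first and 0.03 in the second. In CA1 they gave -0.21 and -0.45 and in the DG -0.15 and -0.43, and the calls in CA1 and the DG were lost in the first run. The 7 oligodendrocyte markers of the same libraries summed to 153266 to 279670 in young and 110995 to 256762 in middle-aged CA1. There 1 of the 7 was lower at 12 months and 0 higher (limma, adjusted p under 0.05, median difference -0.18), beside 12.8% and 12.4% of all genes. The other subregions had none lower: 1 marker was higher for CA3 (median -0.02) and 2 for the DG (median 0.05). Of all genes 10.9% were higher and 10.8% lower in CA3, and 18.5% and 18.5% in the DG. The part of these markers in the age values of Slc6a9 was not tested.

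**Figure D2:**
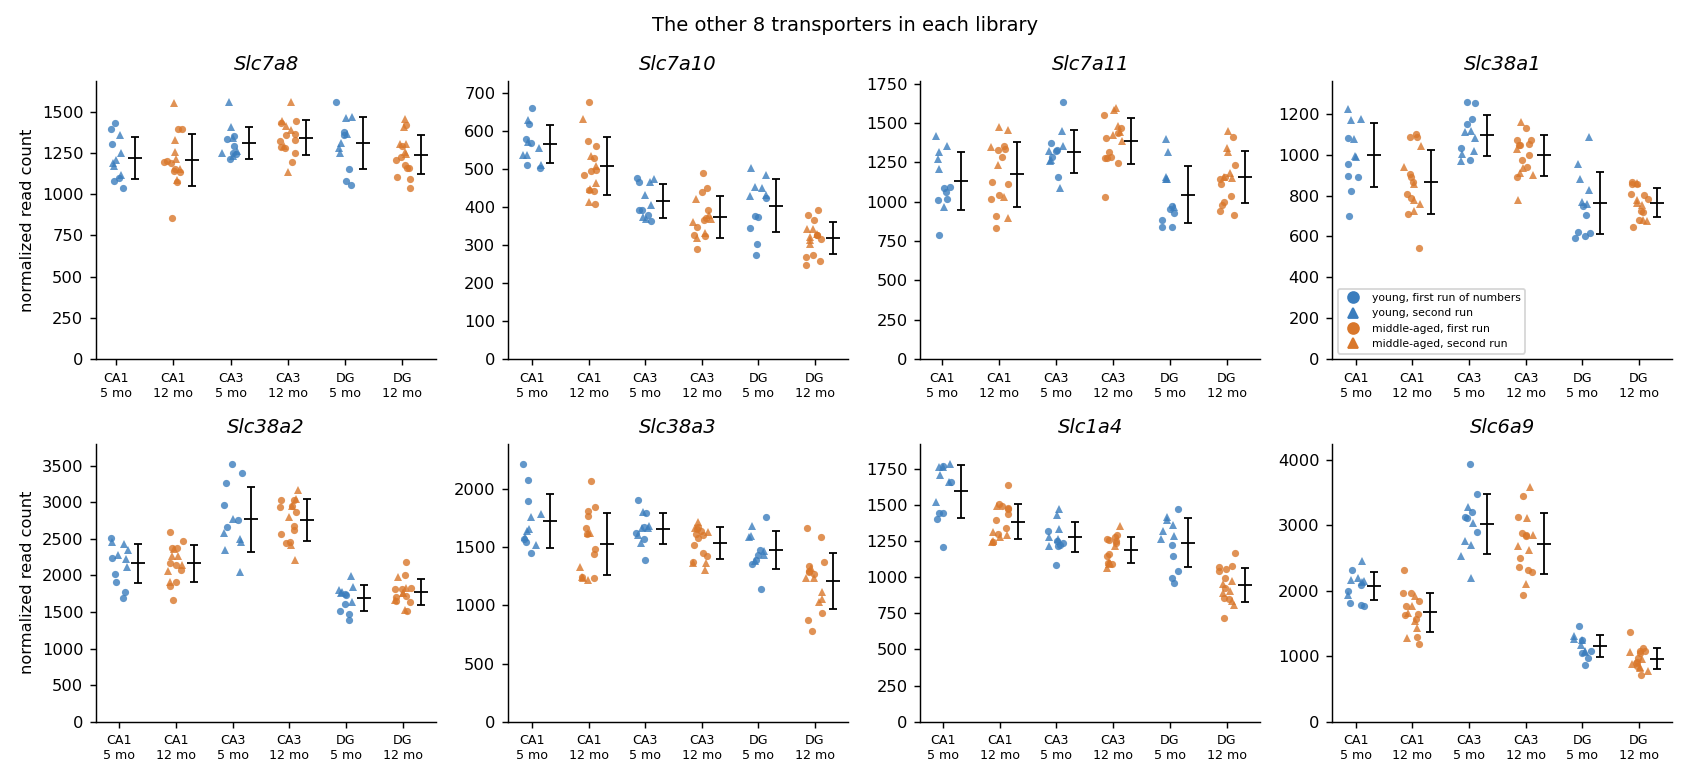
Normalized read counts (vertical axes, each from 0) of the 8 members other than Slc7a5 and Slc3a2 in each library, by subregion and age, with circles for the first and triangles for the second run of animal numbers and bars for the mean and SD. Slc1a4 in CA1 and the DG and Slc7a10 in the DG have all 16 middle-aged libraries below the young median, while the ages of Slc7a8 and Slc38a2 overlap widely.

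Counts of members past the threshold (limma, adjusted p under 0.05 over all genes tested) are given beside the share of all genes, with nothing read from them, since the rule used this contrast. In CA1 3 of 10 were lower (Slc7a5, Slc6a9 and Slc1a4) and 0 higher, where 12.8% of 14685 tested genes were lower and 12.4% higher. In CA3 1 of 10 was lower (Slc7a5) and 0 higher, where 10.8% were lower and 10.9% higher. In the DG 6 of 10 were lower (Slc7a5, Slc1a4, Slc7a10, Slc38a3, Slc6a9 and Slc3a2) and 0 higher, with 18.5% of all genes lower and 18.5% higher. On the average 7 of 10 were lower, all but Slc7a8, Slc7a11 and Slc38a2, and 0 higher, with 24.6% of 14291 genes lower and 25.4% higher. The members' median difference was -0.17 in CA1, -0.11 in CA3, -0.23 in the DG and -0.15 on the average. The median over all genes was 0.00, 0.00, 0.01 and 0.01.

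Leaving out single rats moved some of these calls, which are described here and test nothing about the members. The call for Slc38a1 on the average was lost in 19 of 28 fits, without young rat 1, 3 or 7 to 12 or middle-aged rat 1, 2, 4, 5, 9 to 14 or 16, with differences from -0.14 to -0.09 over all fits. In CA1, Slc7a10 passed without middle-aged replicate 2 (-0.19) or 13, Slc38a3 without middle-aged replicate 2 (-0.21) and Slc38a1 without young replicate 6 (-0.25). In CA3, Slc38a1 passed without 1 of young replicates 6 and 12 and middle-aged replicates 5 and 14, with -0.15 to -0.11 over all fits. Also in CA3, Slc7a10 passed without middle-aged replicate 9 (-0.19 to -0.14 over all fits), Slc38a3 without young replicate 6 (-0.14 to -0.09) and Slc1a4 without young rat 2 or middle-aged rat 15 (-0.13 to -0.09).

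**Figure D3:**
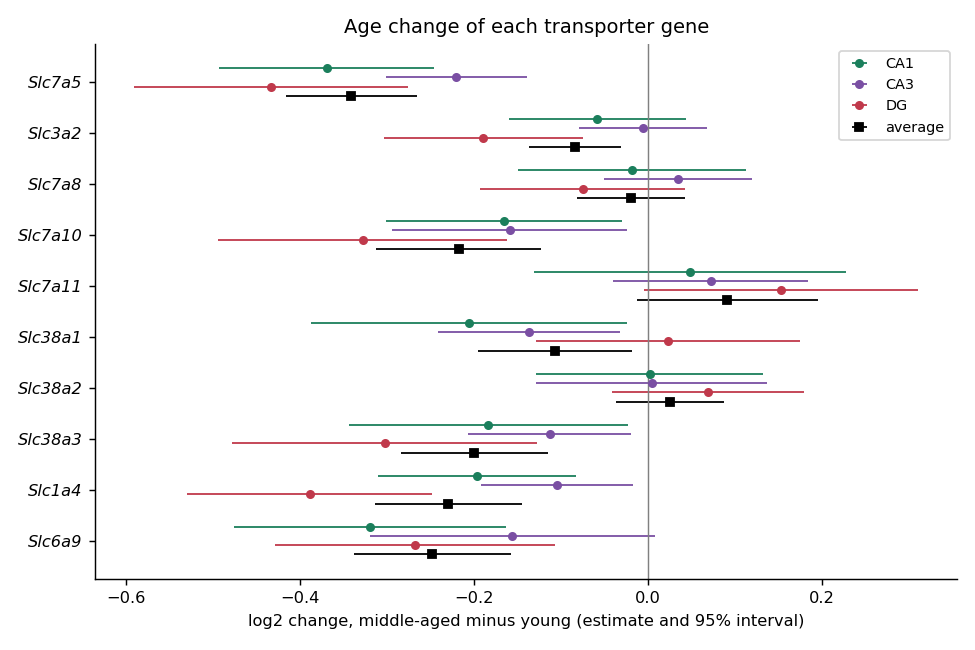
Difference between middle-aged and young rats on the log2 scale (horizontal axis) for each member in CA1, CA3, the DG and on the average over the 3, with 95% intervals. Slc7a5 lies between -0.43 and -0.22 in the subregions, while the average of Slc7a8, Slc7a11 and Slc38a2 has an interval that includes 0.

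Whether the age difference itself varied between subregions was tested on the differences within each rat, a measure the choice of members did not use. Slc1a4 differed more in the DG than in CA3, by -0.29 ± 0.07 (SE, adjusted p = 0.038, 12 and 16 rats), the only such call among the 10 members in the 3 pairs of subregions. In this pair 1.38% of 14378 genes were called lower and 1.35% higher. Leaving out 1 rat ended the call for Slc1a4 in 12 of the 28 possible fits, with values from -0.31 to -0.26. These were the fits lacking a young rat (replicate 3, 6, 8, 9, 10 or 11) or a middle-aged one (replicate 1, 5, 7, 9, 11 or 15). In the first run the difference was -0.20 (adjusted p = 0.53), and without pairing by rat its adjusted p was 0.066. Slc7a5 had -0.21 ± 0.09 in the same pair (adjusted p = 0.19, 95% interval -0.39 to -0.03) and -0.39 in the second run alone, where it passed (adjusted p = 0.027), against -0.06 in the first. Slc3a2 likewise passed in the second run alone (-0.37, adjusted p = 0.035), with -0.05 in the first.

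Between CA1 and CA3 no member passed, with 0% of 14513 genes called higher and 0% lower (limma), although 1444 genes had an unadjusted p under 0.05. Slc7a5 had -0.15 ± 0.07 there (adjusted p = 0.48), with a 95% interval of -0.28 to -0.01 and values of -0.12 and -0.20 by run. Between the DG and CA1 0 of 10 members passed, where 0.397% of 14340 genes were called higher and 0.209% lower, and Slc7a5 had -0.06 ± 0.11 (adjusted p = 0.82, 95% interval -0.28 to 0.15), with 0.06 and -0.19 by run. The largest member value in that pair was 0.23 ± 0.10 for Slc38a1 (adjusted p = 0.25). A greater age difference of Slc7a5 in one subregion than in another was thus not detected with all rats.

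The level of each transcript in the 3 subregions was compared next. This comparison does not use age. Because each subregion's table had been normalized separately, whole reads were recovered from the deposited values and the 84 libraries were scaled together, and levels are given as CPM, the reads of a gene relative to the scaled size of its library. Differences were taken within each rat on log2(CPM + 1) and averaged over the ages. Lengths of the transcripts counted were not available, so levels are compared between subregions for 1 gene and never between genes.

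Slc6a9 showed the widest spread between subregions of the 10. It ranged from 104 to 211 CPM in CA3 (median 153), from 67.3 to 139 in CA1 (median 105) and from 40.6 to 83.3 in the DG (median 60.5). The CA3 and DG libraries did not overlap, and the level in CA3 exceeded that in the DG in 28 of 28 rats, as did that in CA1. The DG was below CA3 by -1.34 ± 0.06 on the log2 scale (adjusted p = 1.6e-18) and below CA1 by -0.81 ± 0.06 (adjusted p = 5.2e-14), and CA1 was below CA3 by -0.53 ± 0.07 (adjusted p = 3.2e-08). The order CA3, CA1, DG held with every neighbouring pair called. The 7 oligodendrocyte markers had the same order: all 7 were lower in CA1 than in CA3 (median -0.63), in the DG than in CA1 (median -1.17) and in the DG than in CA3 (median -1.93). Of all genes 31.2%, 31.5% and 36.2% were lower in these comparisons. The part of the oligodendrocyte markers in the level of Slc6a9 was not tested.

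Slc7a10 and Slc1a4, which both handle serine, were highest in CA1. Slc7a10 ranged from 23.1 to 38.3 CPM in CA1 (median 30.2), from 15.4 to 26.4 in CA3 (median 20.2) and from 14.2 to 28.5 in the DG (median 19.6). It was higher in CA1 than in CA3 by 0.51 ± 0.04 (adjusted p = 9.1e-12), in 28 of 28 rats, and lower in the DG than in CA1 by -0.56 ± 0.05, also in 28 of 28. The DG and CA3 did not differ beyond their spread (-0.05, 95% interval -0.14 to 0.04, adjusted p = 0.35), although the first run alone gave -0.16 (adjusted p = 0.048), against 0.08 in the second. Slc1a4 ranged from 68.1 to 102 CPM in CA1 (median 82.7), from 56.4 to 78.7 in CA3 (median 66.6) and from 41.1 to 83.4 in the DG (median 59.2). CA1 was higher than CA3 by 0.35 ± 0.03 (adjusted p = 7.7e-11, 28 of 28 rats) and the DG lower than CA1 by -0.45 ± 0.04 (adjusted p = 2.1e-11, 26 of 28). The DG was also below CA3, by -0.10 ± 0.04 (adjusted p = 0.013), but in young rats alone this was 0.03 (adjusted p = 0.70), and in the second run alone -0.08 (adjusted p = 0.15).

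The light and heavy chains of LAT1 were also highest in CA1, with smaller differences. Slc7a5 ranged from 76.4 to 159 CPM in CA1 (median 105), from 71.2 to 106 in CA3 (median 87.4) and from 60.5 to 126 in the DG (median 93.8). The ranges overlapped widely, yet within rats CA1 was higher than CA3 in 26 of 28, by 0.25 ± 0.04 (adjusted p = 2.7e-07). The DG was lower than CA1 by -0.20 ± 0.05 (adjusted p = 0.0019), in 20 of 28 rats, and did not differ detectably from CA3 (0.05, 95% interval -0.03 to 0.14, adjusted p = 0.28). Young rats alone gave -0.17 for the DG against CA1, which did not pass (adjusted p = 0.11). Slc3a2 had medians of 210 CPM in CA1, 190 for CA3 and 197 for the DG. It was higher in CA1 than in CA3 by 0.14 ± 0.03 (adjusted p = 0.00058, 23 of 28 rats), though by 0.06 in the second run alone (adjusted p = 0.35). The DG differed from CA1 by -0.09 ± 0.04 (adjusted p = 0.058, and 0.025 with edgeR) and from CA3 by 0.04 (adjusted p = 0.29).

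The carriers Slc38a1, Slc38a2 and Slc7a11 were lowest in the DG or highest in CA3. Slc38a2 ranged from 110 to 189 CPM in CA3 (median 148), from 93.5 to 147 in CA1 (median 125) and from 78.7 to 125 in the DG (median 99.8). All 3 pairs were called, with the DG below CA3 by -0.58 ± 0.05 (adjusted p = 9e-13) in 28 of 28 rats, the DG below CA1 by -0.31 ± 0.05 and CA1 below CA3 by -0.27 ± 0.06 (adjusted p = 0.00019). The last was -0.40 for the first run alone, against -0.13 for the second, where it did not pass (adjusted p = 0.094). Slc38a1 had medians of 55.9 CPM in CA3, 51.3 in CA1 and 43.5 in the DG, and the DG was below both CA3 (-0.36 ± 0.05) and CA1 (-0.27 ± 0.05), while CA1 and CA3 did not differ detectably (-0.09, adjusted p = 0.19). For Slc38a1, middle-aged rats alone gave -0.15 for DG minus CA1 (adjusted p = 0.057), and the first run alone gave -0.21 for CA1 minus CA3, which passed (adjusted p = 0.027). Slc7a11 had medians of 72.0 CPM in CA3, 64.1 in CA1 and 64.9 in the DG, and CA3 was above CA1 (-0.16 ± 0.05 for CA1 minus CA3, adjusted p = 0.011) and above the DG (-0.22 ± 0.05 for DG minus CA3, adjusted p = 0.00013). Neither passed in the second run alone, with -0.08 (adjusted p = 0.45) and -0.09 (adjusted p = 0.23), and the first did not pass in young rats alone (-0.14, adjusted p = 0.14).

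Slc38a3 was lower in the DG than in CA1 (-0.27 ± 0.06, adjusted p = 0.00029) and CA3 (-0.18 ± 0.05, adjusted p = 0.0012), with medians of 76.5, 91.8 and 87.1 CPM. In young rats alone DG minus CA3 was -0.09 and did not pass (adjusted p = 0.24). Slc7a8 was the member with no called pair. Its medians were 67.7 CPM in CA1, 71.4 for CA3 and 72.6 for the DG, and the 3 differences had 95% intervals of -0.13 to 0.03 (CA1 minus CA3), -0.02 to 0.17 (DG minus CA1) and -0.04 to 0.09 (DG minus CA3).

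In all, 4 members were higher and 3 lower in CA1 than in CA3, where 31.1% of 14498 genes were called higher and 31.2% lower. In the DG against CA1 0 were higher and 7 lower, with 33.2% of all genes higher and 31.5% lower, and in the DG against CA3 0 were higher and 6 lower, with 35.4% higher and 36.2% lower. Marker genes moved in the same comparisons. Of 13 tested endothelial markers, 11 were higher in CA1 than in CA3 and 13 were lower in the DG than in CA1, and of 12 astrocyte markers 6 were higher and 1 lower in CA1 than in CA3 and 9 were lower and 1 higher in the DG than in CA1. Of 8 mural markers 7 were higher and 1 lower in CA1 than in CA3, and 8 were lower in the DG than in CA1. Of 8 microglial markers 6 were higher in CA1 than in CA3, 8 were lower in the DG than in CA1 and 7 lower in the DG than in CA3. All 7 oligodendrocyte markers were lower in each of the 3 comparisons, as given above. The part of these cells in the members' levels was not tested, and fewer cells of a type and less RNA per cell cannot be told apart in bulk tissue.

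**Figure D4:**
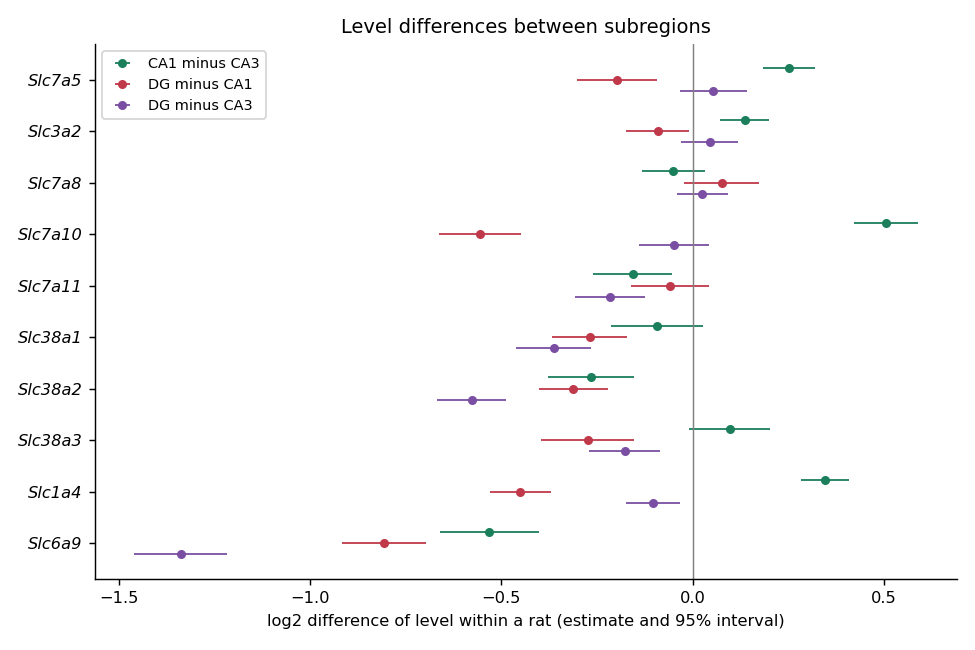
Differences in level between subregions within a rat (log2 scale, horizontal axis) for each member, with 95% intervals, over 28 rats. Slc6a9 has the widest spread, down to -1.34 for the DG against CA3, Slc7a10 and Slc1a4 are higher in CA1, and all 3 values of Slc7a8 have intervals that include 0.

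How the members varied from rat to rat within an age was described from the deviations of each library from the mean of its age and run of animal numbers, which removes the age difference used to choose them. The points of each correlation are 28 libraries of 1 subregion, and they share each library's dissection and scaling, so no p value is given. In the DG, Slc7a5 spread more in the first run (SD 16.6% of the mean in young and 18.9% in middle-aged rats) than in the second (4.66% and 8.16%). Slc38a3 had 14.1% and 23.7% against 7.64% and 9.97%, while young Slc7a11 had 6.21% against 12.7%. The correlations pool both runs and were not taken by run. Slc7a5 varied most closely with Slc38a3 (r = 0.65 for CA1, 0.55 for CA3 and 0.87 for the DG), Slc1a4 (0.57, 0.60 and 0.75), Slc7a10 (0.59, 0.47 and 0.78) and Slc3a2 (0.58, 0.41 and 0.84). With Slc6a9 it was 0.39, -0.05 and 0.84. Against these stood Slc38a2 (-0.53, -0.17 and -0.42) and Slc7a11 (-0.58, 0.04 and -0.42), and Slc7a8 was near 0 (0.22, -0.08 and -0.15). The closest pair after Slc7a5 and Slc38a3 was Slc3a2 and Slc38a3 (mean r = 0.65), and the most opposed was Slc7a10 and Slc7a11 (mean r = -0.42, with -0.71 in CA1).

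The mean correlation over the 3 subregions placed Slc38a3 119th of 12101 genes by likeness to Slc7a5, Slc1a4 297th, Slc7a10 388th and Slc3a2 426th. Of all genes, 482 (3.98%) reached a mean of 0.6 and 96 reached 0.7, and the median gene had 0.01. The 6 genes most like Slc7a5 were Agpat1, an enzyme of phosphatidic acid synthesis (mean r = 0.81), Adgrg1, an adhesion receptor (0.79), Slc9a3r1, a scaffold of membrane proteins (0.77), Nacc2 and Nacc1, which encode BTB-domain transcriptional regulators (0.77 each), and Slc27a1, a fatty acid transporter (0.77). Their age differences on the average were -0.39, -0.31, -0.30, -0.37, -0.23 and -0.26, set beside -0.34 for Slc7a5. Age means were removed before the correlation was taken.

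**Figure D5:**
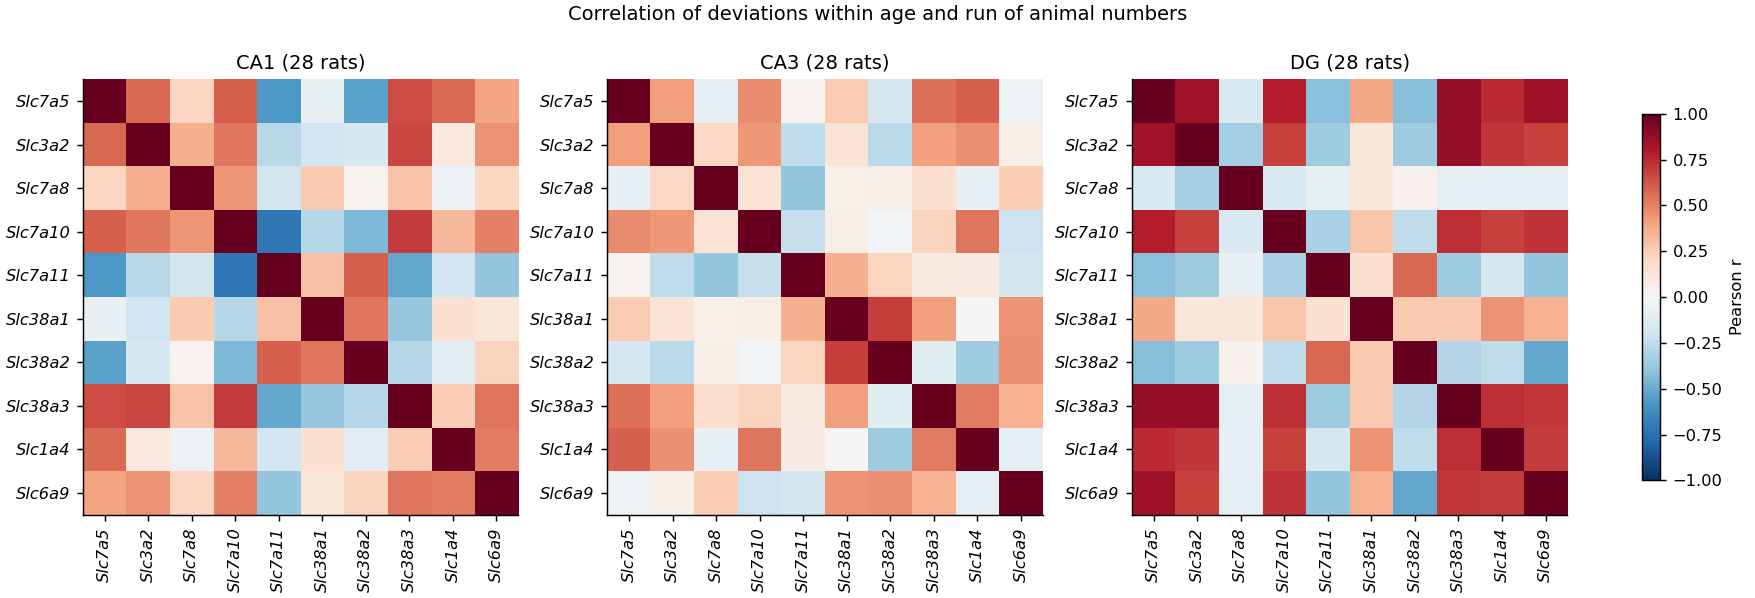
Pearson correlation (colour, from -1 to 1) of the deviations of each pair of members over 28 rats in CA1, CA3 and the DG, after the mean of each age and run of animal numbers was removed. Slc7a5, Slc3a2, Slc7a10, Slc38a3, Slc1a4 and Slc6a9 form a block of positive values in the DG (0.87 for Slc7a5 and Slc38a3), and Slc7a11 and Slc38a2 are negative with Slc7a5 in CA1 and the DG.

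A rat's deviation in one subregion told little of its deviation in another. For Slc7a5 the correlation across the same rats was 0.19 between CA1 and CA3, -0.13 between the DG and CA1 and 0.02 between the DG and CA3. Over all genes the medians were 0.03, 0.03 and 0.08. The widest member values were -0.46 for Slc7a8 between the DG and CA1 and 0.43 for Slc38a2 between the DG and CA3.

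Cell markers and library measures moved with some of these values. Marker levels here were means of log2 values, centred on age and run as for the members. None of the 12 astrocyte markers was at 0 in all libraries of a group. Their level correlated with Slc7a5 at 0.29 for CA1, 0.33 for CA3 and 0.83 for the DG. With Slc38a3 it was 0.34, 0.55 and 0.89, and with Slc3a2 0.58, 0.15 and 0.84. The level of 13 endothelial markers, of 15 listed, correlated with Slc7a5 at 0.12, 0.50 and 0.53 and with Slc38a3 at 0.64, 0.43 and 0.65. Oligodendrocyte precursors, read from 3 markers, gave 0.34, 0.25 and 0.87 with Slc7a5, the last being above that of astrocytes, and microglia, read from 8, gave -0.17, -0.22 and 0.63. The level of 7 oligodendrocyte markers correlated with Slc6a9 at 0.74, 0.91 and 0.71 and with Slc7a5 at -0.13, -0.27 and 0.51. The 2 markers of CA1 pyramidal cells gave 0.51, 0.44 and 0.48 with Slc7a5 and 0.58, 0.61 and 0.56 with Slc7a10. With Slc7a11 they gave -0.73, -0.12 and -0.19. The share of reads from 13 mitochondrially encoded genes correlated with Slc7a5 at -0.37, -0.12 and -0.10, and the number of reads at -0.18, -0.44 and -0.25. These are the same libraries, with the same points, as above.

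With age, the summed endothelial level ranged from 8558 to 12642 in young and from 8155 to 11508 in middle-aged CA1, from 7788 to 9560 and from 7314 to 9842 in CA3, and from 6518 to 9225 and from 5461 to 9391 in the DG. Of the 13 endothelial markers tested on the average, 5 fell and 0 rose, with a median of -0.06. Over all genes 24.6% were lower and 25.4% higher on the average, to be set beside this count and those of the markers that follow. Egfl7 changed by -0.34 ± 0.07, Tie1 by -0.29 ± 0.06, Cldn5, the tight junction protein of the barrier, by -0.25 ± 0.06 and Cdh5 by -0.18 ± 0.05. The summed astrocyte level ranged from 74695 to 101006 in young and from 71112 to 101147 in middle-aged CA1, from 69613 to 90323 and from 69266 to 92231 in CA3, and from 60343 to 79169 and from 58352 to 89849 in the DG. Of the 12 astrocyte markers 5 fell and 2 rose, among them Sox9 (-0.54 ± 0.08), Ntsr2 (-0.24 ± 0.06), Aldh1l1 (-0.21 ± 0.06) and Aqp4, which rose by 0.20 ± 0.06. Of 3 markers of oligodendrocyte precursors 2 fell and 0 rose (median -0.33), with Gpr17 at -0.86 ± 0.10 and Cspg4 at -0.33 ± 0.06. Their sum in the DG ranged from 1485 to 2307 in young and from 1260 to 2408 in middle-aged rats. Of 8 microglial markers 4 rose and 0 fell (median 0.30), among them Aif1 (0.53 ± 0.15). By subregion 3 rose in CA1 (median 0.37), 6 in CA3 (0.35) and 2 in the DG (0.09), beside 12.4%, 10.9% and 18.5% of all genes. Microglial sums ranged from 6334 to 7852 in young and from 7060 to 35284 in middle-aged CA1 (medians 7262 and 7836). In CA3 they ranged from 5576 to 7095 and from 6880 to 25529 (medians 6547 and 7542). In the DG they ranged from 4742 to 7499 and from 4768 to 9638. Of 7 oligodendrocyte markers 3 fell and 1 rose on the average (median -0.04). Of the 2 markers of CA1 pyramidal cells 1 fell and 0 rose on the average (median -0.36). By subregion 2 of them fell in CA1 (median -0.30), 0 in CA3 (-0.20) and 1 in the DG (-0.57). Of all genes 12.8%, 10.8% and 18.5% were lower there. The mean share of mitochondrially encoded reads was higher at 12 months in each subregion, at 11.5% against 8.54% for CA1, 9.04% against 7.59% for CA3 and 7.96% against 7.06% for the DG. The part of these markers and reads in the age differences of the members was not tested.

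Other amino acid transporters were read from a list of 37 genes that holds none of the 10. Of 30 tested on the average, 15 were lower and 5 higher at 12 months (limma, adjusted p under 0.05), with a median difference of -0.13, where 24.6% of all genes were lower and 25.4% higher. Slc7a1, the cationic carrier CAT1, fell by 0.28 ± 0.04 (adjusted p = 7.5e-06), and its change was -0.28 for CA1, -0.27 for CA3 and -0.28 for the DG. Slc43a2, the carrier LAT4 of branched-chain amino acids and phenylalanine, fell by 0.24 ± 0.03 (adjusted p = 2.5e-06), and passed in each subregion with -0.21, -0.21 and -0.30. Slc6a11, the GABA transporter GAT3, changed by -0.37 ± 0.06 and Slc7a4, a CAT-like gene, by -0.37 ± 0.06.

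Within that list some families were mixed. Of the SLC38 family, Slc38a5 (-0.32 ± 0.07), Slc38a7 (-0.16 ± 0.05) and Slc38a10 (-0.17 ± 0.04) were lower, while Slc38a9 (0.19 ± 0.05), which encodes the lysosomal arginine sensor of mTORC1, and Slc38a6 (0.24 ± 0.09) were higher. These and the next genes were named after their values were seen. Slc7a6, the light chain of y+LAT2, which also pairs with the heavy chain, was higher by 0.14 ± 0.04, and Slc6a15, a neuronal carrier of branched-chain amino acids and proline, by 0.13 ± 0.04. The glutamate carriers Slc1a1 (0.00 ± 0.03) and Slc1a2 (-0.09 ± 0.06) did not pass on the average, and Slc1a3 was higher by 0.08 ± 0.03. In CA1 10 of 31 were lower and 2 higher, beside 12.8% and 12.4% of all genes. In CA3 8 of 31 were lower and 0 higher, beside 10.8% and 10.9%. In the DG 13 of 30 were lower and 1 higher, beside 18.5% and 18.5%.

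Genes of the amino acid response were next, since ATF4 is known to induce several of the members. Of 30 tested on the average of 33 listed, 4 were higher and 7 lower, with a median of 0.02, where 25.4% of all genes were higher and 24.6% lower. Atf4 itself rose by 0.22 ± 0.04 (adjusted p = 3.5e-05), with 0.24 in CA1, 0.11 in CA3, where it did not pass, and 0.32 in the DG, and Cebpg, a partner of ATF4, rose by 0.22 ± 0.04. Chac1, a glutathione-degrading enzyme and target of ATF4, fell by 0.23 ± 0.05, and Wars, a tryptophan tRNA synthetase, by 0.12 ± 0.03. Asns, asparagine synthetase, had 0.05 ± 0.04 and did not pass, and was named after its value was seen. Between subregions 23 of 31 of these genes were lower and 4 higher in CA1 than in CA3, where 31.2% of all genes were lower and 31.1% higher.

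Of the genes that carry amino acid signals to mTORC1, 6 of 30 tested were higher and 10 lower on the average (34 listed, median -0.02), beside 25.4% and 24.6% of all genes. Lamtor5 and Rragc, of the lysosomal scaffold and its GTPases, rose by 0.18 ± 0.03 and 0.19 ± 0.04. Castor2, a relative of the arginine sensor Castor1, fell by 0.37 ± 0.07 and Rptor, the mTORC1 subunit raptor, by 0.19 ± 0.04. Mtor itself was lower by -0.18 ± 0.04 and Lars, the leucine tRNA synthetase, higher by 0.17 ± 0.04, and both were named after their values were seen. The medians of both lists lay near that of all genes, 0.01.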

How the data were processed

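Gene expression was measured in 84 libraries of polyA RNA from CA1, CA3 and the DG of 28 rats. The deposited signal is a table of normalized counts for each subregion, per the labels and file headers. Build rn6 and the tools Partek, STAR 2.5.3a and DESeq2 3.5 are named, without roles, in the submitters' processing notes. Annotation and strand setting were not given in the sources used here. Within a library, values up to 1000 reads came out as whole reads (100%, tolerance 0.1 read) when divided by a single step, so reads were recovered that way. For CA3, a column headed by an animal number alone was taken as that animal's library. Labels state that spike-ins were added. They were not used.

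Genes reaching a value of 10 in 12 or more libraries were tested on log2(value + 1) with limma 3.58.1 (moderated, trend, 2-sided) in R 4.3.3, with Benjamini-Hochberg adjustment across all genes tested and a threshold of 0.05. The fold is on the log2(value + 1) scale. All 10 members passed the filter in every subregion. Differences between subregions were taken within rats, since the titles give the same animal number to the 3 libraries of a rat. For levels, recovered reads of all libraries were scaled together by TMM in edgeR 4.0.16, and genes with at least 1 CPM in at least 12 libraries were tested on log2(CPM + 1). Tests were checked on simulated counts in which libraries were drawn independently with a fixed dispersion. Effects of rat and run were not part of that check, so it does not cover the pairing or the runs.

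The members, lists and tests were chosen with earlier results of these data known, and the labels do not name litters or housing, so p values measure the spread between these rats. Named beyond the members were up to 4 genes of each list with the smallest p on the average and the 6 genes most like Slc7a5 (among genes with a mean of at least 50 in each subregion). Other genes of the lists were named after their values were seen, as stated beside them. Alternatives were pseudocounts of 0.5 and 5 (0.25 for CPM), no filter, TMM, median of ratios, DESeq2 1.42.0 and edgeR on recovered reads, the run of animal numbers as a term, each run alone, each age alone for levels, no pairing by rat and leaving out each rat.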

Additional observations from a re-analysis of the deposited data

Results flagged for a closer look

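The age difference of Slc1a4, which encodes the serine and alanine exchanger ASCT1, was larger in the DG than in CA3. The difference of differences within rats was -0.29 on the log2 scale (limma, adjusted p = 0.038 over 14378 genes). Leaving out a rat ended the call in 12 of 28 fits, in the first run alone it was -0.20 (adjusted p = 0.53), and unpaired by rat its adjusted p was 0.066. The age differences themselves were -0.39 in the DG and -0.10 in CA3, and by run of animal numbers they were -0.22 and -0.02 in the first and -0.59 and -0.21 in the second. The part of cell markers or library measures in this value was not tested.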

How the results depend on the processing

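Counts of members called with age depended most on the run of animal numbers. In CA1 3 were called with all rats, 1 in the first run, against 5 in the second, and 3 to 5 when 1 rat was left out. In CA3 the 1 call became 2 with the run as a term, and 1 to 3 without 1 rat. Of all genes 3231 were called there with all rats and 3821 with the run as a term. In the DG the 6 calls became 0 in the first run, where 25 of all genes were called, against 6812 in the second. On the average the 7 calls became 3 in the first run, where Slc38a1 turned from -0.11 to 0.021. All genes called on the average went from 7149 of 14291 to 2628 in that run. Of the DG minus CA3 differences of age change, 1 was called with all rats, 0 from the first run alone, 3 from the second, and 0 to 1 without 1 rat. Pairing is by the animal named in the titles, and with no replicate block the count of members was 0. Over all genes that pair had 393 calls with all rats, 1 from the first run, 757 from the second and 171 without the block. For levels, the 7 calls between CA1 and CA3 became 4 in the second run, and for Slc1a4 the DG minus CA3 difference turned from -0.10 to 0.030 in young rats alone (adjusted p = 0.70). The 6 level calls between the DG and CA3 became 4 in young rats alone and 4 in the second run. Over all 14498 genes, CA1 minus CA3 calls went from 9024 to 6073 in the second run. DG minus CA3 calls went from 10373 to 8237 in young rats alone and to 8920 in the second run. With the deposited values as they stand, scaled separately for each subregion, CA1 minus CA3 was 0.05 for Slc3a2, no longer called, and -0.13 for Slc7a8 and -0.18 for Slc38a1, newly called. The cause of these changes was not tested. The second run joins separate blocks of animal numbers, 1 for each age, so block and age cannot be told apart there.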
